A study of Homo sapiens and Mus musculus with 13 samples.

Results

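In NT2 cells, 5159 genomic intervals carried RNA:DNA hybrid signal on both strands. They were found in the NT2 DRIPc-seq peak list as every stretch of at least 1 bp shared by a plus strand peak and a minus strand peak on chromosomes 1 to 22, on the human build hg19. They involved 8291 of the 85289 peaks on these chromosomes (9.72%), 4151 plus peaks and 4140 minus peaks, out of 88310 peaks in the whole list. A pair was called divergent where the minus peak started further left and convergent where the plus peak did, and no pair started at the same base. The members were thus chosen by the positions of the DRIPc peaks, so their number, class and length are a description.

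DRIP-seq recovers R-loop fragments with an antibody against RNA:DNA hybrids and sequences the DNA without strand, while DRIPc-seq sequences the RNA strand of the hybrids. The NT2 line, from a human embryonal carcinoma, is pluripotent, and K562 comes from a human myeloid leukaemia. Genomic DNA was cut with HindIII, EcoRI, BsrGI, XbaI and SspI (digest A) for NT2 DRIPc-seq, for NT2 DRIP-seq with no RNase named, for the NT2 libraries labelled RNaseA and RNaseH and for K562, and with BamHI, NcoI, ApaL1, NheI and PvuII (digest B) for a further NT2 library with no RNase named. NT2 DRIPc-seq had 2 samples and 1 peak list, and each of the 5 DRIP-seq lists came from 1 sample, so no value below has a replicate check and no test between groups could be made.

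An R-loop forms when RNA pairs with the template strand behind RNA polymerase and displaces the other DNA strand. R-loops are known at promoters and at the ends of genes, often where guanine is enriched on the displaced strand. RNA from both strands of one region arises where promoters fire in both directions, where an antisense transcript runs through a gene, or where 2 genes run into each other. In a divergent pair that is staggered, the shared interval lies at the 5′ ends of both hybrid peaks, and in a staggered convergent pair it lies at both 3′ ends, taking the listed strand as that of the RNA. Hybrids on opposite strands of one interval need not sit on the same DNA molecule, and a peak list cannot tell. RNase H cuts the RNA of a hybrid, so a library made after it serves as a negative control. Regions are given by position, counted from 1, because a genome sequence and annotation of hg19 were not used here.

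The pairs took different shapes, of which 4 regions, 1 per class, are drawn in the maps of long intervals. In a staggered pair each peak has a part of its own, and in a nested pair 1 peak lies wholly inside the other. The longest staggered divergent interval found with digest A, digest B and RNase A but not RNase H lay on chromosome 1 from 45101106 to 45112616 (11.5 kb). There a minus peak of 13.3 kb and a plus peak of 17.5 kb started 1.83 kb apart, and the interval was covered to 99.2% by digest A, to 100% by digest B and to 99.99% by RNase A peaks. The longest nested divergent one, on chromosome 6 from 161547965 to 161563767 (15.8 kb), was a whole plus peak inside a minus peak of 21.1 kb, with digest A covering 99.98% and RNase A 77.0%. Both regions therefore combined RNA from each strand with DRIP signal over most of the interval.

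The longest staggered convergent interval of this kind lay on chromosome 15 from 74908568 to 74924692 (16.1 kb). Its peaks of 16.2 kb (plus) and 16.8 kb (minus) started 0.081 kb apart, and digest A covered 94.3%. This interval took up nearly the whole of both peaks, so its class rests on that small offset. The longest nested convergent one was also on chromosome 15, from 85740721 to 85754103 (13.4 kb), where digest A and digest B covered 100%, RNase A 94.7% and K562 100%. K562 peaks covered between 73.0% and 100% of these 4 intervals, so none of them lacked signal in the other cell line. The next longest of this kind varied more. K562 covered 0% of a staggered divergent interval on chromosome 15 from 99668193 to 99676836. It covered 15.1% of a nested divergent one on chromosome 4, 11.6% of a staggered convergent one on chromosome 12 and 3.74% of a nested convergent one on chromosome 3. Digest A covered 53.3%, 18.3%, 17.7% and 86.7% of these. In the others of the 3 longest per class, K562 covered 69.0% to 99.2%. One of those, a convergent nested interval of 13.4 kb, lay on chromosome 15 from 84861891 to 84875242. Counting itself, 12 both-strand intervals lay within 100 kb of its centre.

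**Figure D1:**
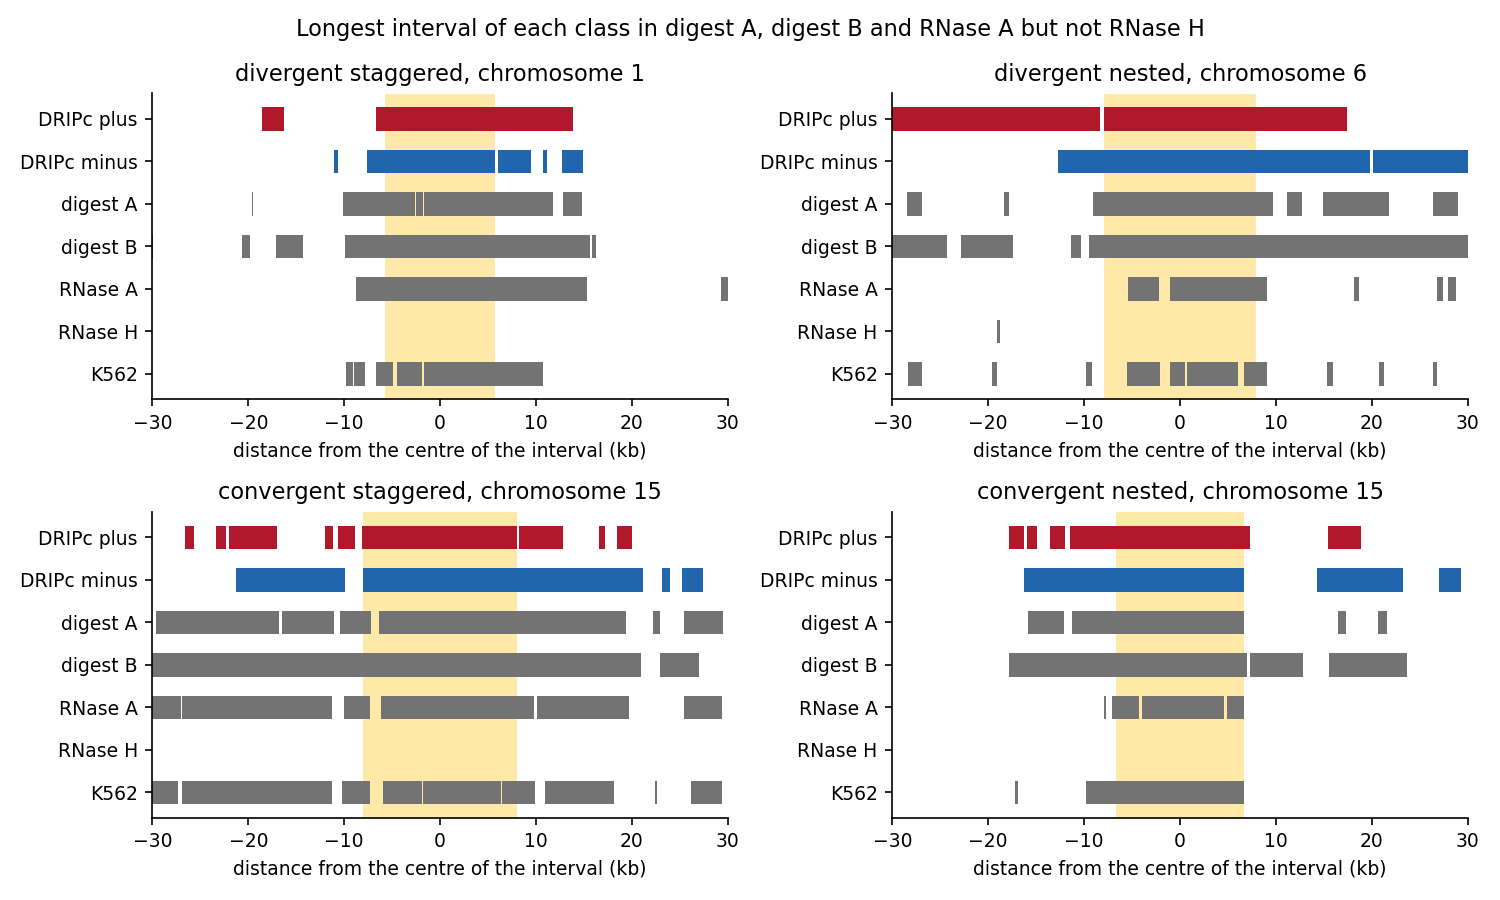
Peaks of NT2 DRIPc-seq by strand and of the 5 DRIP-seq lists (rows) against distance from the centre of the shared interval in kb (x axis), for the longest interval of each class that met peaks of both digests and of RNase A and none of RNase H. The shaded band is the interval shared by the plus and minus peak, and it is filled by digest B peaks over 100% or 99.99% of its length in each panel.

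Long both-strand intervals were not always clean of RNase H signal. The longest of all, a nested convergent pair on chromosome 1 from 228744165 to 228782319, had a plus peak of 38.6 kb and a minus peak of 38.2 kb, and every DRIP list, RNase H included, covered 100% of it. RNase H and RNase A peaks also covered 100% of an interval on chromosome 16 from 46385847 to 46409460 (23.6 kb, staggered convergent) and of one on chromosome 19 from 36759519 to 36782299 (22.8 kb, nested divergent). On chromosome 16 from 46416514 to 46429923, the longest staggered divergent interval of all (13.4 kb) was likewise covered to 100% in each of the 5 lists. Of the 12 intervals that are the 3 longest of their class, 8 touched an RNase H peak.

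At the other extreme, some long intervals had no NT2 DRIP peak at all. The longest in each class measured 5.61 kb on chromosome 14 from 37146384 to 37151989 (staggered convergent), 5.39 kb on chromosome 1 from 170697168 to 170702558 (nested divergent), 5.19 kb on chromosome 9 from 5784191 to 5789382 (staggered divergent) and 3.31 kb on chromosome 12 from 88448567 to 88451875 (nested convergent). Of these, only the one on chromosome 14 met a K562 peak, over 3.87% of its length. The densest place was on chromosome 9, where 19 both-strand intervals, itself included, lay within 100 kb of the centre of a nested convergent interval from 139688776 to 139690900, which was covered to 100% in each list but RNase H, whose peaks did not touch it.

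Convergent pairs outnumbered divergent ones. There were 2746 convergent intervals, or 53.2% (51.9 to 54.6%, exact Clopper-Pearson 95% interval, which covers counting error only), and 2413 divergent ones. Shape mattered for reading this count. In the 2673 nested pairs the class says only which strand holds the outer peak, the minus strand when divergent and the plus strand when convergent, and these were 1326 and 1347, a divergent share of 49.6% (47.7 to 51.5%). The imbalance lay in the 2486 staggered pairs, with 1087 divergent and 1399 convergent, a divergent share of 43.7% (41.8 to 45.7%). Convergent intervals were the more numerous on 18 of 22 chromosomes. The 4 exceptions were chromosomes 4, 8, 13 and 22.

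The shared interval was usually about 1 kb long in each class. Its median was 1068 bp over all pairs, with the middle 50% between 467 and 2199 bp and a range of 4 to 38155 bp. Medians were 1001 bp for staggered divergent, 1116 bp for nested divergent, 1059 bp for staggered convergent and 1100 bp for nested convergent intervals. In staggered pairs it took up a median of 59.0% of the shorter peak when divergent and 63.3% when convergent. In nested pairs the inner peak had a median of 1104 bp and the outer peak 6071 bp. Paired peaks were longer (median 2516 bp) than unpaired ones (1694 bp), and 14.8% of the longest quartile of DRIPc peaks were in a pair against 7.49% of the shortest.

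**Figure D2:**
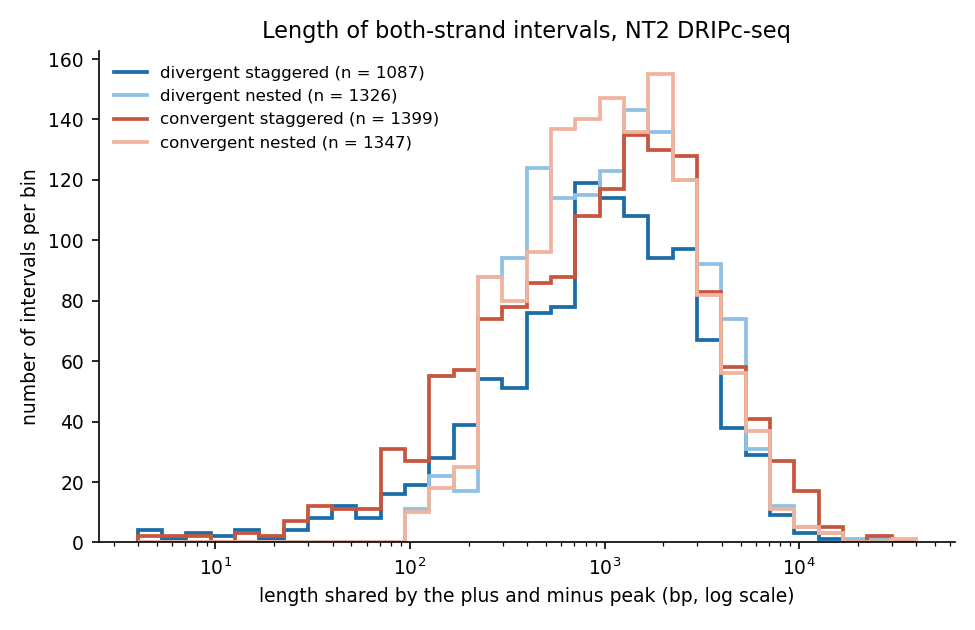
Number of both-strand intervals per bin (y axis) against the length shared by the plus and minus peak in bp on a log scale (x axis), 1 line for each class and shape. The 4 distributions peak near the same length, with medians of 1001 to 1116 bp, and only staggered pairs reach below 102 bp.

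Inner peaks of nested pairs were spread along the outer peak. Counted from the 5′ end of the RNA of the outer peak, 292 of 2673 inner centres lay in the first 20% of its length, 753 in the middle 20% and 319 in the last 20%. An inner peak cannot be centred closer to an end than 50% of its own length. The counts in the first and last 20% were near each other, for a minus outer peak (152 first, 158 last) and for a plus one (140 and 161). Between these and the middle, 621 inner centres lay on the 5′ side and 688 on the 3′ side. Near coincidence of both peaks was rare, with both edges within 50 bp in 9 of the 5159 pairs. The starts lay within 50 bp in 148 pairs, and the class of these rests on that small offset.

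Many members came in chains. The 5159 intervals fell into 3132 groups of peaks joined by overlap, of which 2017 held a single pair and the largest 11 pairs. Of the 8291 peaks, 6714 had 1 partner, 1247 had 2 and 330 had 3 or more, up to 9. Many peaks abutted another of their own strand: 7138 of 85245 neighbouring peaks of 1 strand were exactly 1 bp apart, against 6 that were 2 bp apart. Such abutting peaks made up 18.9% of paired peaks and 14.9% of unpaired ones, and 1048 intervals (20.3%) ended at such a junction. In a staggered convergent interval on chromosome 10, from 42354948 to 42377981 (23034 bp), a minus peak of 42.5 kb overlapped 2 abutting plus peaks, so that the same minus peak also gave the nested divergent interval from 42377983 to 42397275. Joining peaks 1 bp apart left 4583 intervals, of which 46.8% were divergent.

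Just inside the rule, 153 pairs overlapped by 1 to 100 bp, 65 divergent and 88 convergent. Just outside it, 131 pairs of opposite strands were separated by fewer than 100 bp, 57 divergent and 74 convergent. Both peaks touched digest A in 80.4% of the former and 81.7% of the latter, and the larger share lay outside the rule.

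DRIP-seq, which did not choose the members, had peaks at most of them. Digest A peaks touched 4601 of 5159 intervals by at least 1 bp, or 89.2% (88.3 to 90.02%), where 45.8% of all DRIPc peaks on chromosomes 1 to 22 did so. Digest B touched 4810 (93.2%, 92.5 to 93.9%) against a background of 54.8%, and RNase A touched 4165 (80.7%, 79.6 to 81.8%) against 40.0%. In K562 the share was 74.2% (73.0 to 75.4%) against 32.3%. RNase H peaks touched 431 intervals, 8.35% (7.61 to 9.14%), against 2.50% of all DRIPc peaks. Each share lay above its background although the intervals are shorter than the peaks they were cut from.

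The difference was also present base by base, where length plays no direct part. Of the bases with both strands, 85.6% were inside a digest A peak, against 29.1% of the bases that carried 1 strand only. The values were 93.3% against 45.6% for digest B, 77.9% against 25.9% for RNase A, 8.51% against 0.833% for RNase H and 69.7% against 19.0% for K562. Among whole peaks of like length the order was the same. In the shortest quartile of DRIPc peaks, digest A touched 79.8% of those in a pair and 23.3% of the others, and in the longest quartile 96.4% and 56.6%.

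Unpaired peaks near a pair lay between paired and distant ones. Unpaired DRIPc peaks within 20 kb of a pair touched digest A in 68.6% of cases (8786 peaks), and those further away in 37.4% (68212 peaks). The paired peaks themselves did so in 91.2% (90.6 to 91.8%), above both. The 20 kb limit was chosen after the data were seen.

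Divergent and convergent intervals had like shares in most DRIP lists. Digest A touched 89.4% (88.1 to 90.6%) of divergent and 89.0% (87.7 to 90.1%) of convergent intervals, and digest B 93.8% and 92.8%. With RNase A the shares were 81.1% and 80.4%, and in K562 73.4% and 74.8%, with overlapping 95% intervals in each of these lists. Digest A was higher for divergent intervals on 13 of 22 chromosomes and for convergent ones on 9. RNase H touched 6.71% (5.75 to 7.79%) of divergent and 9.80% (8.71 to 10.97%) of convergent intervals. The order was that of the staggered pairs, 5.43% (4.16 to 6.95%) when divergent and 12.4% (10.8 to 14.3%) when convergent, with the convergent share higher on 18 chromosomes, lower on 3 and equal on 1. In nested pairs it was turned, 7.77% (6.38 to 9.34%) when divergent and 7.05% (5.74 to 8.55%) when convergent, with overlapping 95% intervals. All these 95% ranges cover counting error only and take the members as independent. Many members share a peak, and those touched by RNase H lay partly in runs, so the ranges may be too narrow.

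**Figure D3:**
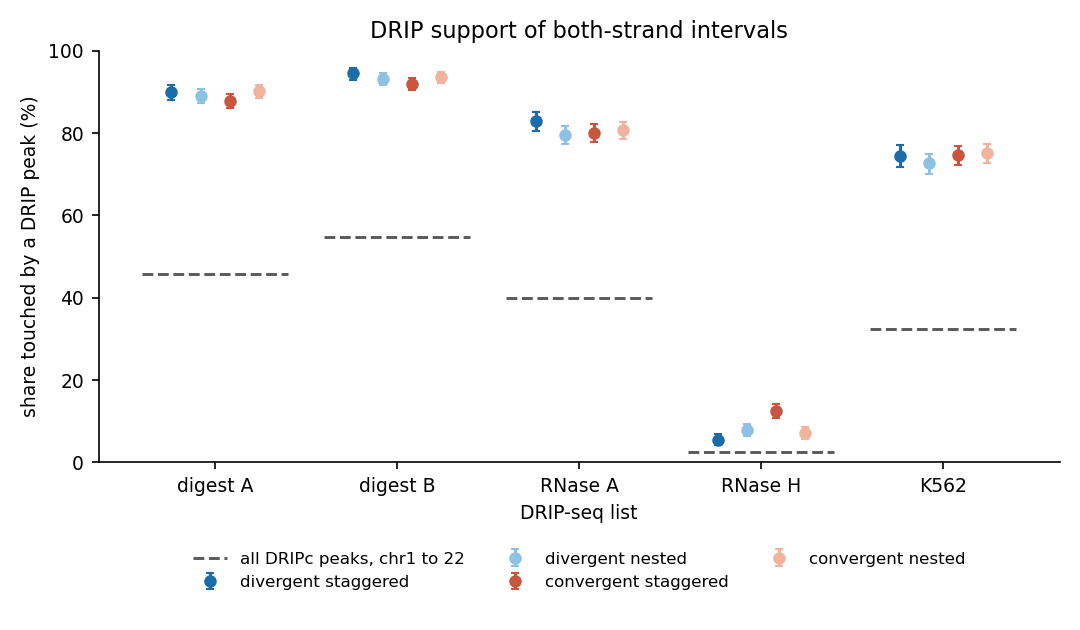
Share of both-strand intervals touched by at least 1 bp of a DRIP peak (y axis, %) in each of 5 DRIP-seq lists (x axis), for 4 combinations of class and shape. Points are shares with exact 95% intervals and dashed lines the share of all DRIPc peaks on chromosomes 1 to 22; the classes lie close together except in RNase H, where staggered convergent intervals stand at 12.4% and staggered divergent ones at 5.43%.

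Longer intervals were found more often. Digest A touched 79.6% of the shortest quartile of intervals (4 to 467 bp) and 96.3% of the longest (2199 bp and above), and K562 62.2% and 85.2%. RNase H did not follow length in this way, with 9.53%, 7.52%, 6.99% and 9.38% from the shortest to the longest quartile.

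The lists agreed on most intervals. Digest A, digest B and RNase A together but not RNase H touched 3641 intervals, 70.6% (69.3 to 71.8%); these measured 1261 bp at the median. Of all DRIPc peaks on these chromosomes, 31.2% showed this pattern. Their share was highest among staggered divergent (75.6%, 73.0 to 78.1%) and lowest among staggered convergent intervals (65.9%, 63.4 to 68.4%). All 4 NT2 lists touched 403 (7.81%, against 2.09% of all DRIPc peaks), digest A and digest B alone 469 (9.09%, against 8.72%) and digest B alone 220 (4.26%, against 9.85%). None of the 4 touched 255 intervals (4.94%, 4.37 to 5.57%), whose median length was 478 bp, while 38.8% of all DRIPc peaks were in none. K562 peaks, from another cell line, met 86.7% of the first set, 95.5% of those in all 4 NT2 lists and 5.10% of those in none, where the shares over all DRIPc peaks of these patterns were 75.4%, 87.7% and 2.48%.

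Within a pair, DRIP cover was highest where the strands met. In the 2017 pairs whose peaks overlapped no other, 83.5% of the bases of the shared interval were inside a digest A peak. The single-strand arms had 62.9% on the left and 62.2% on the right, and the 1 kb beyond the pair had 51.7% and 52.7%. Set against its own arms, the interval was covered to a larger share in 1090 of the 2017 pairs and to a smaller share in 316, and both were fully covered in 421 pairs and uncovered in 190. With digest B the interval had 91.8% and the arms 79.3% and 78.5%. RNase H gave another profile, with 8.48% in the interval, 2.13% and 2.00% in the arms and 4.77% and 3.88% in the flanks, so the arms lay below the flanks. Over all 5159 pairs, chained ones included, the arms lay above the flanks, with RNase H cover of 7.01% and 5.92% in the arms and 4.10% and 3.85% in the flanks.

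**Figure D4:**
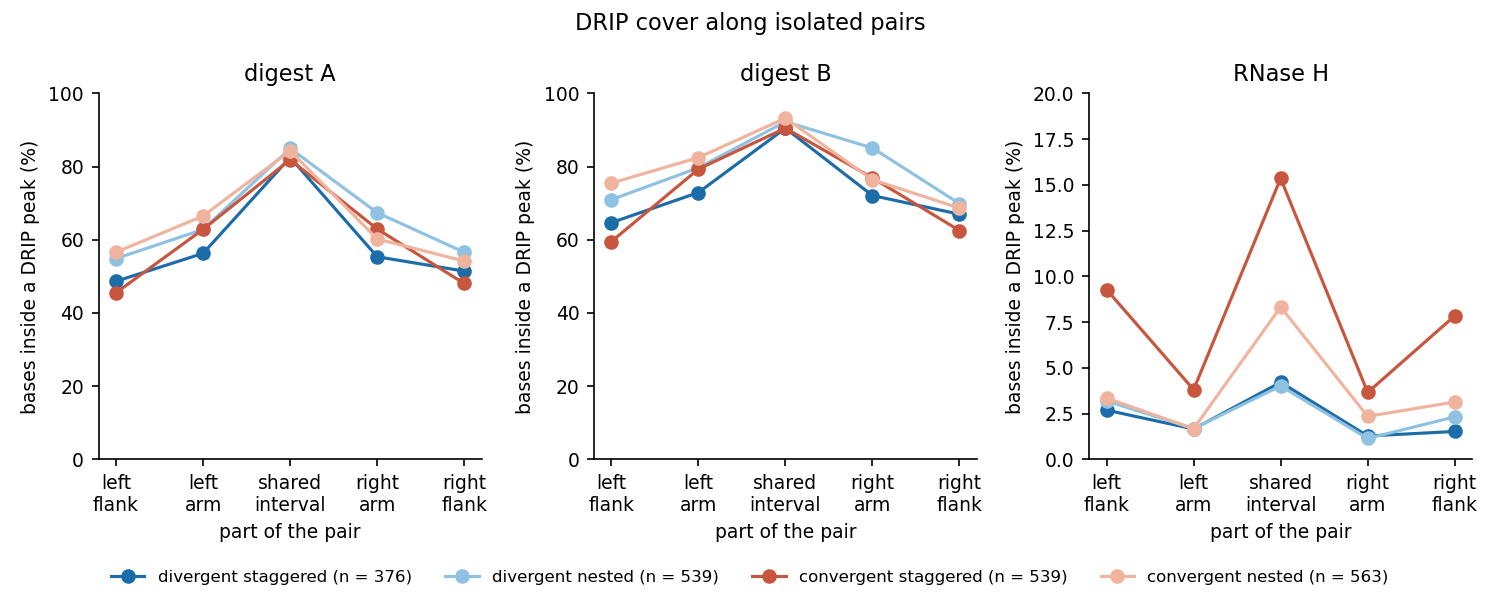
Share of bases inside a DRIP peak (y axis, %) along the 2017 pairs that overlap no other pair, from 1 kb left of the pair through its left arm, the shared interval and its right arm to 1 kb right of it (x axis), with 1 panel per list and a shorter axis for RNase H. In digest A and digest B every class peaks at the interval, and in RNase H the staggered convergent class reaches 15.4%.

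The arms of isolated nested pairs differed by the direction of the RNA of the outer peak. The arm on its 5′ side was covered by digest A to 67.0% and the arm on its 3′ side to 61.5%, and by K562 to 49.7% and 40.4%. Digest B and RNase A also had the 5′ arm higher, while RNase H had it lower, with 1.41% and 2.03%. Over all nested pairs, chained ones included, the lists differed. Higher cover on the 5′ side was not seen with digest A, which covered 73.9% of the 5′ and 74.8% of the 3′ arms of divergent pairs. In convergent pairs it covered 73.1% and 73.4%. Digest B had the 5′ arms higher, with 87.4% and 86.7% in divergent and 84.9% and 84.1% in convergent pairs. K562 covered 54.1% and 57.0% in divergent and 59.0% and 56.3% in convergent pairs. In isolated staggered pairs, the arms of convergent pairs are the 5′ parts of their peaks and those of divergent pairs the 3′ parts. Digest A covered 62.9% of the former and 55.8% of the latter, and digest B 78.2% and 72.5%. Here the sides come from different pairs, so class and side cannot be told apart. A smaller step towards the 5′ side was seen in the 76998 unpaired peaks. There digest A covered 27.6% of the bases on the 5′ side of the midpoint and 25.6% on the 3′ side. These sides were compared after the data were seen.

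The DRIP peaks at these places were long. The digest A peak that covered most of an interval measured 5090 bp at the median, and all digest A peaks on these chromosomes 1216 bp, and with digest B the medians were 10938 and 2848 bp. Length was not matched in this comparison. A longer peak meets an interval more readily, and a peak was counted once for each interval it covered most. The difference in medians is therefore partly set by how the peaks were picked. The whole interval lay inside 1 digest A peak in 3140 of the 4601 touched cases (68.2%), and the whole pair, arms included, in 1121 (24.4%). With digest B these were 88.2% and 57.5% of 4810. Intervals were not centred in the digest A peak: 51.8% had their centre in the central 50% of it, and the median distance between centres was 1026 bp. With digest B, 59.1% had their centre in the central 50%, and the median distance was 1922 bp.

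The rate of both-strand intervals varied between chromosomes. Chromosome 17 had 11.1 intervals per 100 DRIPc peaks, chromosome 19 had 10.3 and chromosome 22 had 9.34, against 6.05 on chromosomes 1 to 22 together. Chromosomes 18 and 13 had the fewest, 1.84 and 2.56. Across the 22 chromosomes this rate went with the share of the chromosome covered by DRIPc peaks (Pearson r = 0.735, Spearman rho = 0.612), both of which come from the same list. Successive intervals were a median of 7.06 kb apart, and 52.0% of spacings were under 10 kb. The ends of a chromosome were taken as its first base and the end of its last peak in these lists. Within 5 Mb of either lay 653 intervals (12.7%), against 7288 of all DRIPc peaks (8.55%). These were 12.0% of divergent and 13.2% of convergent intervals.

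**Figure D5:**
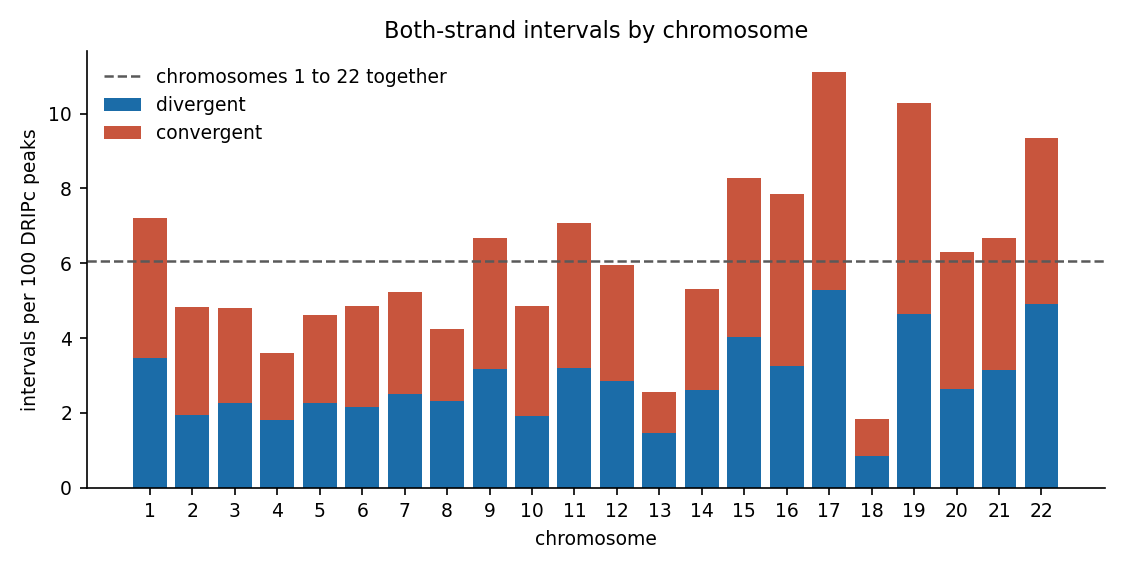
Both-strand intervals per 100 DRIPc peaks (y axis) on chromosomes 1 to 22 (x axis), stacked by class, with the dashed line at the rate of all these chromosomes together, 6.05. Chromosomes 17, 19 and 22 stand highest and chromosomes 13 and 18 lowest.

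Support in DRIP-seq also varied by chromosome. On chromosome 19, digest A touched 99.3% of 286 intervals, RNase A 96.5% and K562 95.5%, and of all DRIPc peaks there 82.8%, 78.3% and 75.5%. On chromosome 18, digest A touched 21 of 28 intervals and RNase A 17, where the shares of all peaks were 22.8% and 19.9%. K562 was lowest on chromosome 13 with 21 of 42 intervals, and 14.2% of all peaks. On chromosome 6, RNase A touched 64.3% of 266 intervals where digest A touched 88.7% and digest B 90.6%. All DRIPc peaks of that chromosome had the same order, with 22.9% for RNase A, 39.7% for digest A and 48.6% for digest B. On chromosome 16, by contrast, RNase A and digest A touched 94.6% and 94.0% of 167 intervals, and 70.3% and 59.6% of all peaks. With 1 library each, RNase A treatment and library are confounded and cannot be told apart.

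About as many intervals with RNase H signal lay near long peak-free stretches as elsewhere, although few intervals lay near them. After the data were seen, the longest stretch without a peak in any of these human lists was located on each chromosome. These stretches ran from 0.512 Mb on chromosome 22 to 21.0 Mb on chromosome 1, and what lies in them was not checked against an annotation. Of the 431 intervals touched by RNase H, 216 (50.1%) lay within 5 Mb of such a stretch, where 512 of all 5159 intervals lay (9.92%). There RNase H touched 42.2% (37.9 to 46.6%) of intervals, and elsewhere 4.63% (4.04 to 5.27%). Digest A touched 89.8% and 89.1%, digest B 93.9% and 93.2% and RNase A 83.4% and 80.4%, while K562 touched 81.6% (78.0 to 84.9%) and 73.4% (72.1 to 74.6%). All DRIPc peaks differed in the same direction, with RNase H touching 8.25% within 5 Mb and 2.05% beyond, K562 37.7% and 31.9%, digest A 49.4% and 45.5%, digest B 58.2% and 54.5% and RNase A 43.5% and 39.8%. Of unpaired DRIPc peaks, RNase H touched 2.71% of 5205 within 5 Mb and 1.65% of 71793 beyond.

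The 7 largest runs of such intervals all lay within 5 Mb of these stretches. Of 20 both-strand intervals on chromosome 10 from 42354948 to 42600461, all 20 were touched by RNase H, 17 of them convergent, and the run began 0.276 kb from the stretch. On chromosome 4 from 49093322 to 49660071, 24 of 34 were touched, 13 divergent and 11 convergent, and the 17 touched in a run on chromosome 8 were 11 divergent and 6 convergent. On chromosome 2, RNase H touched 16 of 17 intervals from 91595045 to 92326115 and 15 of 15 from 89850406 to 90394451, of which 12 and 13 were convergent. The prevailing class thus differed between runs. The next largest runs, with 10 touched intervals each, lay outside these distances. On chromosome 1 from 161100217 to 161441858, 10 of 11 intervals were touched, 8 of them divergent. On chromosome 19 from 35987632 to 37794446, 10 of 16 were touched, 4 of them divergent. Those 7 runs together held 117 of the 431 intervals (27.1%), while 90 touched intervals had no other within 1 Mb.

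The gap between the classes in RNase H shrank away from the stretches. Within 5 Mb, RNase H touched 53.7% (46.3 to 60.9%) of 190 staggered convergent and 22.1% (13.9 to 32.3%) of 86 staggered divergent intervals. Beyond 5 Mb the shares were 5.96% (4.69 to 7.44%) of 1209 and 3.996% (2.87 to 5.40%) of 1001, with overlapping 95% intervals. These ranges also take the members as independent, although the touched ones lay partly in runs. Staggered pairs near the stretches were divergent in 31.2% (25.7 to 37.0%) of cases and elsewhere in 45.3% (43.2 to 47.4%), so convergent pairs were still the more numerous beyond 5 Mb. Of the intervals touched by RNase H, 403 of 431 were also touched by digest A, digest B and RNase A, and 94.4% by K562. Of all DRIPc peaks on these chromosomes, RNase H touched 2128, and 1782 of those were in all 4 NT2 lists. K562 touched 72.3% of the intervals that RNase H did not touch. Whether the RNase H signal came from hybrids was not tested.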

How the data were processed

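Peak lists of NT2 DRIPc-seq and of 5 human DRIP-seq libraries were used. As deposited by the authors, they hold the start and end position of each peak and, for DRIPc-seq, a strand, with no height, count or p-value, so depth is unknown. Bismark 0.7.7, BWA 0.6.1 and TopHat2 2.0.5 appear, with no role, in the submitters' processing notes, and hg19 is among the builds. For the peak caller, its threshold and the way the 2 DRIPc samples became 1 list, no statement was found in the labels. Absence of a peak means only that none was called.

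Overlaps, classes, covered bases and exact Clopper-Pearson 95% intervals were computed with Python 3.11.15, numpy 2.4.6, pandas 2.3.3 and scipy 1.17.1, and plots were drawn with matplotlib 3.10.9. Functions were tested on simulated lists with planted pairs, and bedtools 2.31.1 gave the same 5159 intervals and 4601 touched by digest A. Intervals that share a peak are not independent, so no p-value was computed. The members and lists were chosen with earlier results of these data known. Named regions were, per class and shape, the 3 longest intervals, the 3 longest with digest A, digest B and RNase A and no RNase H, the 2 longest in no NT2 DRIP list, and the interval with the most others within 100 kb; not all are printed. Runs of RNase H intervals were named after their values were seen. Alternatives changed the minimum overlap, joined or dropped peaks, added X and Y, changed the class rule or required 50% cover.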

Additional observations from a re-analysis of the deposited data

How the results depend on the processing

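Of 48 alternative values, 25 stayed within the error of the value reported (for the number of intervals, within 1.5 times) and 23 did not, and convergent pairs outnumbered divergent ones in every alternative. The number of intervals fell to 2376 with the longest 50% of the DRIPc list. The divergent share was 45.1% after same-strand peaks within 1 kb were merged and 43.7% in staggered pairs alone. The median interval was 1209 bp with at least 200 bp of overlap, 1318 bp with at least 50% of the shorter peak, 1446 bp after merging within 1 kb, 1168 bp after joining peaks 1 bp apart and 2334 bp with the longest 50% of the list. With at least 50% of the interval covered, digest A found 84.0% of divergent and 83.4% of convergent intervals and RNase H 5.14% and 8.27%. With the longest 50% of each DRIP list, the values were 84.5% and 81.8% for digest A and 5.64% and 7.65% for RNase H. Digest B in place of digest A gave 93.8% and 92.8%. With at least 200 bp of overlap, digest A found 90.6% of convergent intervals. In staggered pairs RNase H found 5.43% of divergent and 12.4% of convergent intervals. With both shapes kept but without intervals within 5 Mb of the longest peak-free stretch, RNase H found 4.27% of divergent and 4.94% of convergent ones. That last setting and the joining of peaks 1 bp apart were chosen after seeing the data. No paired analysis was possible because both DRIPc samples share 1 peak list and no result comes from a test between groups. For the same reason no replicate could be left out. The lists hold no counts, so depth sets a limit on a missing peak that cannot be stated.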

Other observations

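Chromosomes X and Y, which the counts above leave out, also held both-strand intervals. On X, 116 intervals (52 divergent, 64 convergent) came from 2844 DRIPc peaks, 4.08 per 100 peaks, with a median length of 887 bp. Digest A touched 107 of them, K562 80 (69.0%) and RNase H 24 (20.7%), where the shares of all DRIPc peaks on X were 37.1% for digest A, 19.9% for K562 and 2.04% for RNase H. On Y, 177 DRIPc peaks gave 50 intervals, 28.2 per 100 peaks and above the 11.1 of chromosome 17, with a median length of 342 bp. Of these, 43 were convergent and 7 divergent. RNase H touched 42 of them (84.0%), beside 46 touched by digest A, 50 by digest B and 45 by K562. Of all DRIPc peaks on Y, RNase H touched 60.5%, digest A 73.4%, digest B 80.2% and K562 69.5%. Whether the peaks listed on Y came from hybrids on Y was not tested. No cause was tested.

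Peaks exactly 1 bp apart were not particular to DRIPc-seq. On chromosomes 1 to 22 they numbered 3706 in digest A, 4545 in digest B, 3211 in RNase A, 2523 in K562 and 114 in RNase H, while gaps of 2 bp numbered 15, 3, 12, 9 and 0. The labels do not state how the lists were cut into such pieces.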
